A study of Mus musculus with 16 samples.

Results

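Sites at which all 3 antibodies of the series found binding were taken from the Oct6 M151S library. A member was an Oct6-antibody summit on chromosomes 1 to 19, X or Y with a summit of at least 1 of the 6 Oct4-antibody libraries and of at least 1 of the 6 Sox2 libraries within 100 bp. This left 1133 of 22791 Oct6 M151S summits, or 4.97% (Wilson 95% interval 4.70 to 5.26). Members were therefore chosen by measured peak positions, so that their presence in a library is a description and carries no test.

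ChIP-seq, in which DNA bound by a protein is pulled down with an antibody and sequenced, was performed on OG2 MEFs, mouse embryonic fibroblasts with a GFP reporter driven by Oct4 regulatory sequence. Retroviruses delivered Sox2 and Klf4 (written SK) and 1 POU factor to all cells, which were grown in a defined reprogramming medium. The Oct4 antibody was used on Oct4-SK cells (days 1, 5 and 7), on Oct4defSox2-SK cells (days 1 and 5) and on Oct4 S151M-SK cells (day 1). The Sox2 antibody was used at days 1 and 5 on Oct4-SK, Oct4defSox2-SK and Oct6-SK cells, and of the Oct6 antibody the list from Oct6 M151S-SK cells was the one analysed here. Oct4defSox2 is an Oct4 mutant that is impaired in pairing with Sox2 on DNA, and S151M and M151S exchange the residue of Oct4 and Oct6 at a position that bears on homodimers. The title of the Oct6 M151S sample gives day 1 and another of its labels gives day 2. Each group had 1 library, so intervals cover counting error among sites only and no p-value was computed. Because no Sox2 library analysed here came from Oct6 M151S-SK cells, the 3 antibodies never met in 1 population, and whether the factors sat on the same DNA molecules cannot be told apart from occupancy in separate cultures.

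Oct4 and Oct6 are POU factors, whose pair of DNA-binding domains reads the octamer. Oct4 binds next to Sox2, a factor with an HMG box, on the composite SoxOct element, which drives many enhancers of pluripotent cells. POU factors can also bind as homodimers on the palindromic MORE and on its variant MORE+1, which has 1 extra base in the middle. In fibroblasts many active enhancers lie far from genes and are held by AP-1, a dimer of Fos and Jun proteins.

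The windows below belong to 8 of the 12 members that were found in the most libraries, and are shown because together they hold each kind of motif marked in them. Each is the plus strand of GRCm38 (mm10) from 100 bp before to 100 bp after the Oct6 M151S summit and is named by the nearest start of a coding gene. Capitals mark matches to SoxOct (up to 2 mismatches), MORE or MORE+1 (up to 1 mismatch), the octamer ATGCAAAT, the AP-1 site TGACTCA and the Sox core CATTGT or CTTTGT, on either strand. The octamer's letters lie within SoxOct and a Sox core can lie at its other end, so that these matches can overlap.
Fhit site, chr14:10174936-10175136: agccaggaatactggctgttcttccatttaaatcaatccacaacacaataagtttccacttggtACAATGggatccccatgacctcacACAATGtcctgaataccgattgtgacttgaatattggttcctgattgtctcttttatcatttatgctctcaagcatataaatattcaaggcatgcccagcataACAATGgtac
Trpm3 site, chr19:22703973-22704173: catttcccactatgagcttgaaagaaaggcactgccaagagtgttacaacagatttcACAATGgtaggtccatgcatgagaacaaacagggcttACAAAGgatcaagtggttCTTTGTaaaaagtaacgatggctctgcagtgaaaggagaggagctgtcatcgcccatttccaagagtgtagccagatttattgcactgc
Bmp2k site, chr5:97016300-97016500: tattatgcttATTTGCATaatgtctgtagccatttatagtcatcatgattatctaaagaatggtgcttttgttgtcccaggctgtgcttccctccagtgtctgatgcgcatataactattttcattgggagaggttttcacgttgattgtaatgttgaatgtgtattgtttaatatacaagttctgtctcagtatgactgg
Apol7a site, chr15:77355468-77355668: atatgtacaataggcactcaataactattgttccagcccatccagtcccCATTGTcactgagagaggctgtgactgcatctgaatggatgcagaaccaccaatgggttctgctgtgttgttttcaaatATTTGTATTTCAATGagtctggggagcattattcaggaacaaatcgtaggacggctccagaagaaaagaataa
Nmnat2 site, chr1:153024866-153025066: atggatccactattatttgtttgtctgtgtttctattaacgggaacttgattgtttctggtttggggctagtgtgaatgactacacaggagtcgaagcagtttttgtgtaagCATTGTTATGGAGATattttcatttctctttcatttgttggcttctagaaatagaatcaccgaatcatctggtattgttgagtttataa
Rb1 site, chr14:73314131-73314331: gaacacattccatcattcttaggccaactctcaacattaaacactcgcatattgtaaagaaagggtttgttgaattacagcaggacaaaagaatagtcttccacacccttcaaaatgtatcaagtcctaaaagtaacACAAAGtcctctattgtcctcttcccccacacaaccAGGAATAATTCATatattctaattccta
Cdyl site, chr13:35536959-35537159: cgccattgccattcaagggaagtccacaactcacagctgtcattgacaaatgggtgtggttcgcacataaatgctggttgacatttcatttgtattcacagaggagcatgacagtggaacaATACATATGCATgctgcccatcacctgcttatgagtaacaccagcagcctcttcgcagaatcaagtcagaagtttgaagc
Tnfrsf11b site, chr15:54240788-54240988: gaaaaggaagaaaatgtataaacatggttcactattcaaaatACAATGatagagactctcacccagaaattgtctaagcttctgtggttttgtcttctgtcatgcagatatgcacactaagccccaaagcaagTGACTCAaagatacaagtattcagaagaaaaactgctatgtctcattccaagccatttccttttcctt
Of these 8, the Apol7a and Nmnat2 sites held SoxOct, the Cdyl site held MORE and the Rb1 site held MORE+1. The Bmp2k site held an octamer 90 bp from its summit, and the Fhit, Trpm3 and Tnfrsf11b sites held none of the 4 POU motifs.

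A member had a summit of a median of 5 of the 13 libraries, counting Oct6 M151S itself. There were 283 members in 3 libraries (25.0%), the fewest the rule allows, and 789 (69.6%) in 3 to 5. At the other end 56 members (4.94%) were in 9 or more, 1 was in 12, and no member was in all 13. Most members thus had called summits in only a few libraries. A missing summit can reflect depth, threshold or the length of a list, so this does not show absence of binding. All 6 Oct4-antibody libraries met at 10 members and all 6 Sox2 libraries at 20.

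**Figure D1:**
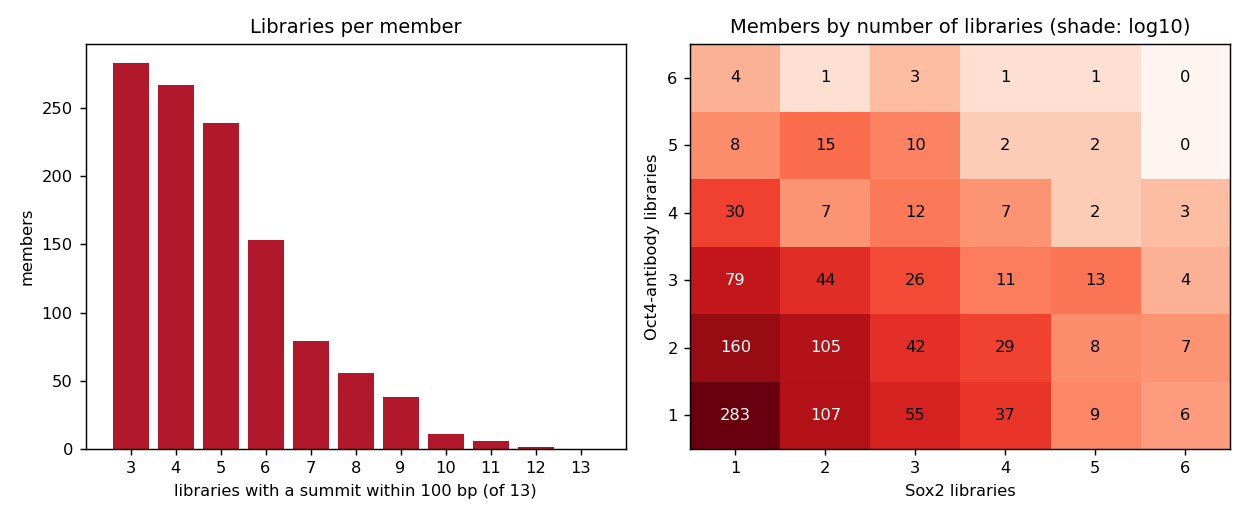
Left, number of members (y axis) by the number of libraries with a summit within 100 bp (x axis). Right, members by the number of Sox2 libraries (x axis) and of Oct4-antibody libraries (y axis), shaded on a log10 scale; the corner with 1 of each holds 283 of the 1133 members.

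Day 1 libraries held most of the members. The Oct4defSox2 library of day 1 had a summit at 911 members (80.4%), Oct4 S151M at 658 (58.1%) and wild-type Oct4 of day 1 at 398 (35.1%). Among the 1467 Oct6 M151S summits with Oct4 but no Sox2 the shares were 57.2%, 65.3% and 19.97%. Members were above them for Oct4defSox2 and wild-type Oct4 and below for Oct4 S151M. The rule used presence in these libraries, so this is a description and carries no test. The later Oct4-antibody libraries held fewer, with 140 members for Oct4 at day 5 (12.4%), 73 at day 7 (6.44%) and 39 for Oct4defSox2 at day 5 (3.44%). Of the 911 members with Oct4defSox2 at day 1, 36 (3.95%) had it at day 5, and of the 398 with Oct4 at day 1, 115 (28.9%) had it at day 5. Over all day 1 summits of these libraries the shares with a day 5 summit within 100 bp were also low for Oct4defSox2, at 2.35%, and were 24.5% for Oct4. These counts move with the length of each summit list, which ran from 1038 summits for Oct4defSox2 at day 5 to 101170 for Oct4 S151M.

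Wild-type Oct4 was at 443 members (39.1%) on any day, at 272 of them on day 1 alone and at 40 on all 3 days. The remaining 690 members (60.9%) owed their Oct4-antibody summit to a mutant, and at 339 (29.9%) the Oct4defSox2 library of day 1 was the only Oct4-antibody library. Among the summits with Oct6 and Oct4 but no Sox2, wild-type Oct4 was at 25.1%, less often than at members. Oct4defSox2 at day 1 was the only Oct4-antibody library at 25.8% of those summits. The rule used presence in these libraries, so these shares are descriptions and carry no test.

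Sox2 summits of Oct4-SK cells lay at 584 members on day 1 (51.5%) and at 244 on day 5 (21.5%). Those of Oct4defSox2-SK cells lay at 384 (33.9%) and 451 (39.8%), and those of Oct6-SK cells at 300 (26.5%) and 246 (21.7%). Among the 608 Oct6 M151S summits with Sox2 but no Oct4 the shares in the same order were 31.6%, 14.97%, 19.9%, 43.8%, 20.6% and 14.5%. Members were above these shares in each library except that of Oct4defSox2-SK cells at day 5, where they were lower. The rule used presence in these libraries, so these differences are descriptions and carry no test. In Oct4defSox2-SK cells the day 5 count was the larger one, and the day 5 list was also the longer of the pair, at 21563 against 5794 summits. Sox2 was found in 1 cocktail at 623 members (54.99%), in 2 at 332 (29.3%) and in all 3 at 178 (15.7%). Members made up 9.22% of all Sox2 summits of Oct6-SK cells at day 1 and 9.18% at day 5, the highest shares of any library, and 0.650% of those of Oct4 S151M, the lowest.

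At 548 members (48.4%) the POU factor and Sox2 had summits in the same cocktail on the same day. Most of these came from Oct4defSox2-SK cells at day 1, with 334 members, and from Oct4-SK cells at day 1, with 255. Only 61 came from Oct4-SK cells and 15 from Oct4defSox2-SK cells at day 5. At the other 585 members the Oct4-antibody and the Sox2 summits came from different cocktails or days. Part of this count is fixed by the design. Oct4 S151M-SK cells and Oct4-SK cells at day 7 had no Sox2 library, and Oct6-SK cells had no Oct4-antibody library. Members that rested on these alone for either antibody could not match.

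**Figure D2:**
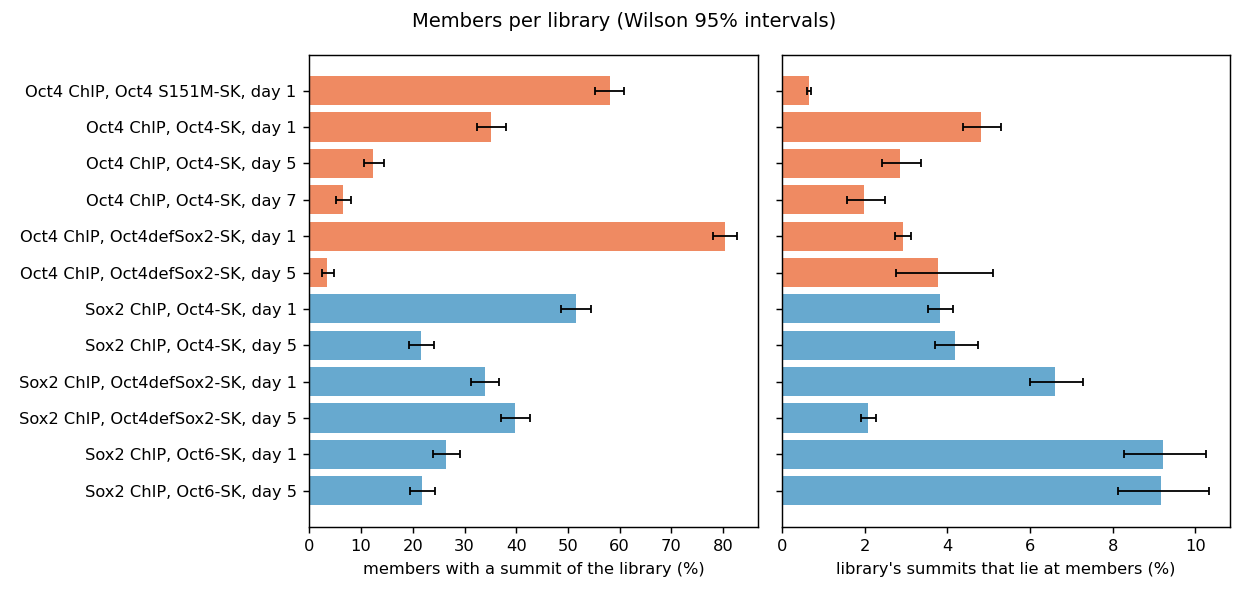
Left, share of the 1133 members with a summit of each library within 100 bp; right, share of each library's own summits that lie at members. Bars are percentages with Wilson 95% intervals, orange for the Oct4 antibody and blue for Sox2; Oct4defSox2 at day 1 reaches 80.4% on the left and the Sox2 libraries of Oct6-SK cells lead on the right.

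Among Oct6 M151S summits, an Oct4-antibody summit was present at 2600 (11.4%) and a Sox2 summit at 1741 (7.64%). Of those with Oct4, 43.6% (interval 41.7 to 45.5) also had Sox2, against 3.01% (2.78 to 3.26) of those without. Read from the other side, 65.1% of the Oct6 summits with Sox2 had an Oct4-antibody summit too. Oct4 without Sox2 was carried by 1467 Oct6 summits, more than the members, and Sox2 without Oct4 by 608. A further 19583 Oct6 summits had neither, and 10428 merged sites had Oct4 and Sox2 but no Oct6 M151S summit.

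The summits of members stood above the middle of their own libraries. Within the Sox2 library of Oct4-SK cells at day 1 the median member ranked at the 85.9th percentile of the score, which is a −log10 p-value from the peak caller MACS2. The median rank was 80.5 for Oct4defSox2 at day 1, 78.9 for Oct6 M151S and 65.6 for Oct4 S151M, and the lowest was 58.2 for Oct4 at day 7. In the Oct4 S151M library, the fold enrichment over the local background had a median of 9.69 at members and 7.29 elsewhere. In all 13 libraries the median member thus ranked in the upper part of the score.

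The Oct6 M151S signal itself was modest. The median fold enrichment of members was 2.70, against 2.42 over all other Oct6 M151S summits, and the middle 90% of members ran from 1.98 to 3.99. The median score was 4.89 for members and 3.74 for the others. A q-value under 0.05 was reached by 569 members (50.2%), by 40.3% of the Oct6 summits with Oct4 but no Sox2, by 34.4% of those with Sox2 but no Oct4 and by 17.7% of those with neither. The library was called with a looser threshold than the other 12, so that 351 members (31.0%) had a score under 4, which none of the other libraries contained. Over all Oct6 M151S summits the share with a score under 4 was higher, at 56.7%. By number of libraries, the median fold was 2.62 for members in 3 libraries and 2.85 for those in 9 or more.

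The highest Oct6 M151S fold enrichment, 39.4 with a score of 344, was at chr4:124658592-124658792, in the coding exon of Pou3f1, the gene of Oct6. Since the cells carry a retroviral Oct6 M151S cDNA, reads of the transgene and of the gene cannot be told apart there. The site had summits of 4 Sox2 libraries, with scores from 13.8 to 48.0, and of 1 Oct4-antibody library, Oct4defSox2 at day 1, with 9.72. The next highest was 21.8, in an intron of Cdkl3, a kinase of the cyclin-dependent kinase-like family, with an Oct4defSox2 day 1 score of 103. The other members of this group were far lower, at 6.26 (nearest Slco6d1), 5.69 (nearest Rc3h1) and 5.55 (in an intron of Eml6).

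The member in the most libraries lay in an intron of Fhit, a hydrolase gene that spans a fragile site, and was missed only by the Sox2 library of Oct4-SK cells at day 5. Its Oct4-antibody scores were 175 for Oct4defSox2 at day 1, 100.2 for Oct4 S151M and 48.1 for Oct4 at day 1. The later ones were 17.96 for Oct4defSox2 at day 5, 16.2 for Oct4 at day 5 and 7.62 for Oct4 at day 7. The Sox2 scores were 10.7 in Oct4-SK cells at day 1, 31.0 and 8.62 in Oct4defSox2-SK cells at days 1 and 5, and 17.96 and 10.8 in Oct6-SK cells at the same days. Where an antibody had summits of a cocktail at more than 1 day at this site, the score was lower at the later day. The Oct6 M151S score was 5.75. Scores, here and at the sites below, were not scaled between libraries, so a lower score need not mean less binding.

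The Cdyl site, in intergenic sequence 122774 bp from the start of the gene of a chromodomain corepressor, held the MORE match shown above. Its Oct4 S151M score of 994 was the highest among the 12 sites. The wild-type Oct4 scores were 41.8, 19.1 and 9.21 at days 1, 5 and 7, and those of Oct4defSox2 were 28.7 and 11.8 at days 1 and 5. All 6 Oct4-antibody libraries thus bound, while Sox2 was found in 3 libraries with 13.4, 12.8 and 19.5.

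At the Nmnat2 site, with SoxOct in an intron of the gene of an NAD-synthesising enzyme, wild-type Oct4 scored 14.8, 12.8 and 23.4 at days 1, 5 and 7. Oct4defSox2 scored 89.7 at day 1 and was not found at day 5, and Sox2 in Oct4-SK cells scored 29.7 and 19.7. The Apol7a site, with SoxOct in 1 mismatch, had all 6 Sox2 libraries, with scores from 11.0 to 56.4, but only the 3 day 1 libraries of the Oct4 antibody, with 10.2 for Oct4, 21.9 for Oct4defSox2 and 27.7 for Oct4 S151M. Both SoxOct sites therefore had Oct4defSox2 at day 1 and not at day 5, as at most members.

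The Rb1 site lay in an intron of the gene of the retinoblastoma protein, which restrains the cell cycle, and had all 6 Sox2 libraries with scores from 8.53 to 41.3. Its Oct4-antibody scores were 107.5 for Oct4defSox2 at day 1, 104 for Oct4 S151M, 29.2 for Oct4 at day 1 and 5.18 at day 5. The Tnfrsf11b site, 37596 bp from the gene of osteoprotegerin, a secreted decoy receptor, held the AP-1 match and scored 251 for Oct4 S151M and 170 for Oct4defSox2 at day 1. The strongest scores thus fell on sites with and without a POU motif.

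Members were rarely at promoters. Within 1 kb of an annotated transcription start lay 36 of 1133 (3.18%, interval 2.30 to 4.37), against 10.2% of all Oct6 M151S summits. The difference from all other Oct6 M151S summits was −7.39 percentage points (Newcombe 95% interval −8.35 to −6.13). Summits with Oct6 and Oct4 but no Sox2 stood at 6.82%, those with Oct6 and Sox2 but no Oct4 at 10.0%, and those with Oct6 alone at 10.9%. The members were also below the sites with Oct4 and Sox2 but no Oct6, at 5.39%, by 2.21 points (difference −2.21, interval −3.19 to −0.951). With a promoter distance of 5 kb the interval of this last difference took in 0, as given in the closing section. The share did not move with the number of libraries beyond counting error, at 2.83% in 3 libraries and 3.78% in 6 or more (difference 0.952, interval −2.12 to 3.88).

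The median distance of members to the nearest start of a coding gene was 83336 bp, against 37851 bp for the other Oct6 M151S summits and 62486 bp for the sites without Oct6. More than 50 kb away lay 702 members (62.0%), a share 17.8 points above the others (14.8 to 20.6) and 6.79 points above the sites without Oct6 (3.77 to 9.73). Introns held 558 members (49.2%) and intergenic sequence 506 (44.7%), while away from promoters 3 lay in coding exons, 15 in untranslated exons and 15 in noncoding exons. By the median and the share beyond 50 kb the members were thus more distal than each class compared with them.

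**Figure D3:**
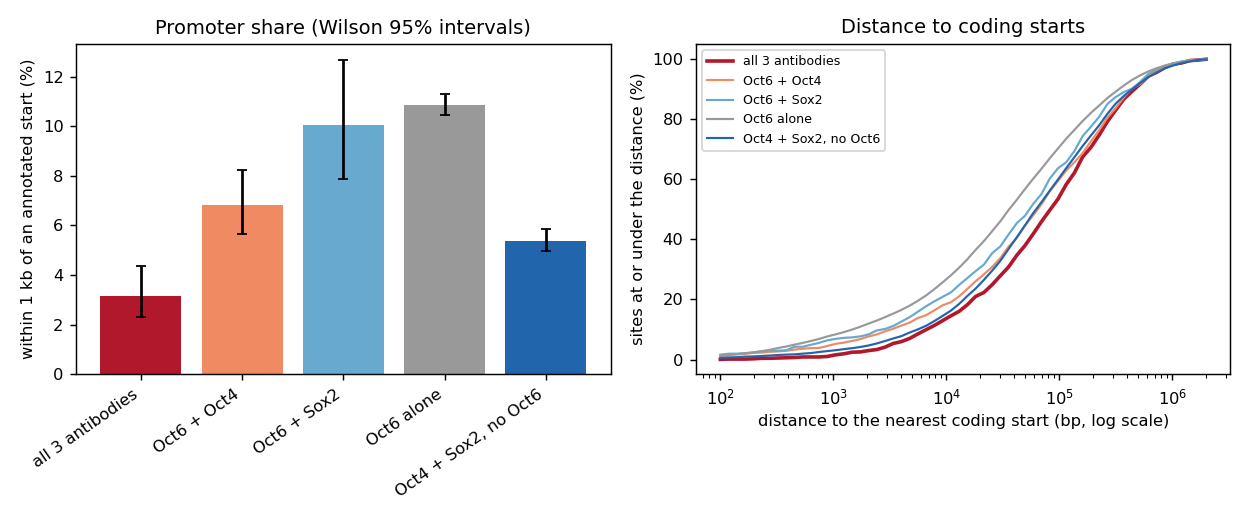
Left, share of sites within 1 kb of an annotated start in each class, with Wilson 95% intervals; right, cumulative share of sites (y axis) by distance to the nearest coding start (x axis, log scale). Members stand lowest on the left at 3.18%, and their curve has the largest median, 83336 bp, while the curves cross at the far end.

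Of the 36 promoter members, 16 were at coding genes, 6 at lincRNA genes and the rest at pseudogenes, antisense and other noncoding transcripts. The nearest lay 11 bp from a start of Cald1, which encodes the actin-binding protein caldesmon. Others were at Prickle2 (104 bp), at Arid1a (194 bp), which encodes a subunit of the SWI/SNF remodelling complex, and at Tmem167b (208 bp). Further ones were at Foxred2, Sc5d, Nsmaf, Lrrtm2, Zfand5, Mgat4c, Crlf2, Serpinb8, Il33 and Zfp148, at up to 960 bp. The Crlf2 promoter, of a cytokine receptor subunit, had all 6 Oct4-antibody libraries, whereas that of Cald1 had 2. None of the 16 was a start of a gene of the lists counted below.

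None of the 1133 members lay within 1 kb of a start of a reprogramming factor, pluripotency, fibroblast, epithelial, AP-1, stress, housekeeping, ribosomal, histone or snRNA and snoRNA host gene from the lists used. Over all Oct6 M151S summits the counts were also small, at 1 of 22791 for the 4 reprogramming factors, 0 for 24 pluripotency genes, 4 for 24 fibroblast genes and 3 each for 16 epithelial and 10 AP-1 genes. They were 2 for 16 stress genes, 4 for 19 housekeeping genes, 7 each for 403 ribosomal and 83 mitochondrial ribosomal entries, 5 for 70 histone genes and 0 for 33 host genes. Within 50 kb the members numbered 4 for the reprogramming factors, 1 each for pluripotency, fibroblast and stress genes, 2 for mitochondrial ribosomal genes, and 0 for the other lists. Over all Oct6 M151S summits the counts of those 5 lists were 9, 17, 30, 18 and 35 of 22791. For the lists without a member they were 11 for epithelial, 12 for AP-1, 14 for housekeeping, 53 for ribosomal, 7 for histone and 0 for host genes. The genes with a member, other than the reprogramming factors, were Zfp42 (42147 bp), a marker of naive pluripotency also called Rex1, Cdh2 (33852 bp), the gene of N-cadherin, Gadd45a (44248 bp), a gene of the DNA damage response, Mrpl33 (16356 bp) and Mrpl1 (17542 bp).

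The 4 members near reprogramming factors were a pair 31 bp apart upstream of Pou5f1, the gene of Oct4, at 2032 and 2001 bp from its start, the Pou3f1 exon site above, and 1 at 6259 bp from Klf4. The Pou5f1 pair held SoxOct and Sox core matches and was in the region of the gene's distal enhancer. Both were near the same summits, with scores for Oct4 of 44.7, 26.2 and 155 at days 1, 5 and 7, for Oct4 S151M of 148 and for Oct4defSox2 at day 1 of 48.5. Sox2 in Oct4-SK cells scored 7.34 at day 1 and 13.6 at day 5, and no other Sox2 library had a summit. Wild-type Oct4 thus scored highest at day 7 here, as at the Nmnat2 and Trpm3 sites and unlike at the Fhit and Cdyl sites, while the Oct6 M151S fold was 1.39 and 1.43, the former the lowest of all members. The OG2 reporter carries Oct4 regulatory sequence, so its copies and the gene cannot be told apart here.

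The members were spread over 927 nearest coding genes, of which 777 had 1 member. Epha7, which encodes an ephrin receptor, had 7, at 269641 to 1248309 bp, and Flrt2 and Negr1, both genes of cell adhesion molecules, had 6 each. Zbtb20, the gene of a zinc finger repressor, had 5, at 63323 to 230155 bp. A further 9 genes had 4, among them Robo1, a receptor of axon guidance, and Trps1, a GATA-type repressor. All Oct6 M151S summits with these nearest genes numbered 20 for Epha7, 20 for Flrt2, 22 for Negr1, 12 for Zbtb20, 22 for Robo1 and 10 for Trps1.

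In the 201 bp around their summits, the members were rich in A and T. Their median GC content was 38.3%, against 45.3% for the other Oct6 M151S summits, 39.3% for the sites without Oct6 and 41.3% for windows 2 kb to either side of the members. The median ratio of observed to expected CpG was 0.147 for members and 0.171 for the others. Repeats, read from the soft-masked genome, covered 13.01% of the bases of the members and 18.8% of those of the other summits. The summits with Oct6 and Oct4 but no Sox2 had the same median GC content as the members, at 38.3%.

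Motif content differed from that of the other Oct6 M151S summits and was nearer to that of sites without Oct6. SoxOct was at 115 members (10.2%, interval 8.52 to 12.05), against 2.54% of all others (difference 7.61 points, 5.97 to 9.51), 10.7% of the sites with Oct4 and Sox2 but no Oct6, and 2.38% of the windows 2 kb away. Of these 115, 1 matched with 0 mismatches, 20 with 1 and 94 with 2. The octamer was at 6.62% of members and 1.86% of the others (difference 4.76, 3.44 to 6.37). MORE or MORE+1 was at 28 members (2.47%), above the 0.803% of all other Oct6 M151S summits (difference 1.67, 0.901 to 2.75) and the 0.618% of the windows 2 kb away (1.85, 0.990 to 2.96), but below the 6.88% of the summits with Oct6 and Oct4 but no Sox2 by 4.41 points (difference −4.41, −6.01 to −2.81). SoxOct was at 11.3% of the latter summits, a difference within counting error (−1.17, −3.53 to 1.26).

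No POU motif was found at 947 members (83.6%, interval 81.3 to 85.6). The share was 95.3% for the other Oct6 M151S summits (difference −11.7 points, −14.0 to −9.69), 77.4% for those with Oct6 and Oct4 but no Sox2 and 96.0% 2 kb away. Against the sites without Oct6, at 83.9%, the difference was −0.297 points with an interval from −2.67 to 1.87. This last comparison changed with the window, the match and the sharing distance, and windows were centred on an Oct6 summit at members and on the middle of the merged Oct4-antibody summits at sites without Oct6. A match is only to these letters, and a window without one may hold weaker sites.

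Sox and AP-1 letters were common. The Sox core was at 698 members (61.6%) and at 29.1% of the other Oct6 M151S summits (difference 32.5 points, 29.6 to 35.4), with 32.0% in the windows 2 kb away. It was more frequent at the sites with Oct4 and Sox2 but no Oct6, at 64.8% (difference −3.24, −6.25 to −0.302). AP-1 was at 176 members (15.5%, interval 13.5 to 17.8), against 5.18% of the others (difference 10.4, 8.34 to 12.6), 14.5% of the sites without Oct6 and 3.35% 2 kb away. POU motifs were lacking at 157 of the 176, beside 947 of all 1133 members (83.6%), and 14 held both AP-1 and SoxOct, beside the 10.2% of all members with SoxOct. The nearest match lay at a median distance from the summit of 32.5 bp for the Sox core, 40.0 bp for SoxOct and 41.0 bp for AP-1, in windows that reached 100 bp. Nothing of these 3 kinds or of the other POU motifs was found at 290 members (25.6%).

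Among motifs of other factors, RUNX (TGTGGTTT) was at 4.94% of members and 1.77% of the other Oct6 M151S summits (difference 3.17, 2.04 to 4.61), and TEAD (GGAATGT) at 5.56% and 3.02% (difference 2.54, 1.33 to 4.05). CTCF, matched by its consensus with 1 mismatch, was at 0.794% and 2.2% (difference −1.40, −1.83 to −0.671). The KLF motif (GGGTGTGGC or GGGCGTGGC) was at 9 members (0.794%), against 0.868%, and the difference was within counting error although all cells carried Klf4 (−0.0737, −0.472 to 0.644). ETS (CCGGAAGT) and NRF1 (GCATGCGC), found at many promoters, were at 1 member each (0.0883%), against 0.222% and 0.346% of the other Oct6 M151S summits, both within counting error. Summits with Oct6 and Oct4 but no Sox2 did not differ from members beyond counting error in TEAD, at 5.52% (0.0390, −1.72 to 1.87), or in RUNX, at 3.89% (1.06, −0.521 to 2.73). Sites without Oct6 did not in TEAD, at 4.73% (0.833, −0.431 to 2.37), but did in RUNX, at 2.96% (1.98, 0.811 to 3.43). The part of base composition in these differences was not tested.

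**Figure D4:**
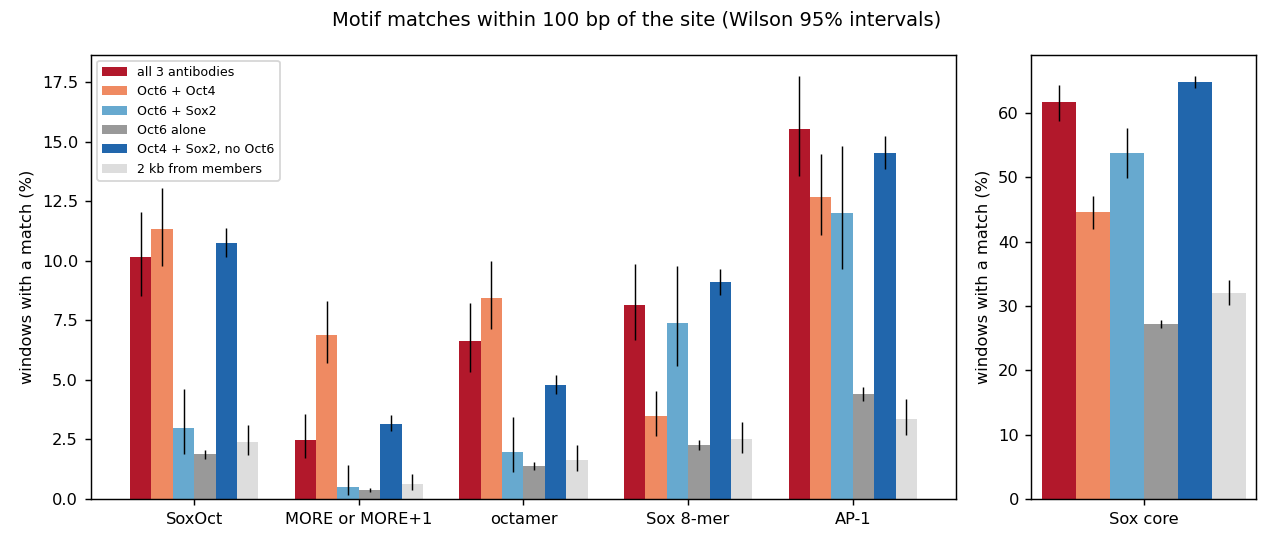
Share of windows with a match to each motif within 100 bp of the site, for members, the other classes and windows 2 kb from the members, with Wilson 95% intervals; the Sox core has its own axis. Members stand at 10.2% for SoxOct, 15.5% for AP-1 and 61.6% for the Sox core, above the summits with Oct6 alone in each.

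Which motif a member held went with the antibody that found it in more libraries. With 1 Oct4-antibody library, 18 of 497 members (3.62%) held SoxOct, with 2 libraries 11.97% and with 3 or more 55 of 285 (19.3%), a difference of 15.7 points between the ends (11.0 to 20.8). The octamer went from 3.02% to 11.2% (difference 8.21, 4.52 to 12.6) and MORE or MORE+1 from 0.604% to 7.37% (difference 6.76, 4.01 to 10.4). The Sox core was at 63.4% with 1 and 57.5% with 3 or more, a difference within counting error (−5.84, −12.95 to 1.24). Single libraries of this antibody differed in opposite directions, with a Sox core share 12.2 points higher at members with Oct4defSox2 at day 1 than at those without (4.97 to 19.4). It was lower with wild-type Oct4 at day 1 (−7.82, −13.8 to −1.88) and day 7 (−13.1, −24.6 to −1.54).

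The number of Sox2 libraries went with the other motif. The Sox core was at 56.0% of the 564 members with 1 Sox2 library and at 75.2% of the 290 with 3 or more (difference 19.1 points, 12.5 to 25.3). SoxOct was at 10.1% and 8.28% of the same groups (difference −1.83, −5.66 to 2.52). For AP-1 the differences between 3 or more libraries and 1 were within counting error, at −2.52 (−7.57 to 2.95) for Oct4 and 0.820 (−3.96 to 6.07) for Sox2. In all, 5 splits of the members were made with 7 criteria each, and the intervals were not adjusted for that number. The split by the Oct6 M151S score at 4 moved SoxOct by 0.259 points (−3.81 to 3.83), the Sox core by 1.75 (−4.31 to 7.93) and AP-1 by −2.67 (−7.56 to 1.80), all within counting error. Members with Oct4 S151M as the sole Oct4-antibody library (109) held the Sox core in 54.1% and AP-1 in 23.9%, and those with Oct4defSox2 at day 1 as the sole one (339) in 67.3% and 15.6%. These differed by −13.1 points (−23.6 to −2.70) and 8.22 points (0.0104 to 17.7), the latter at the edge of counting error.

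**Figure D5:**
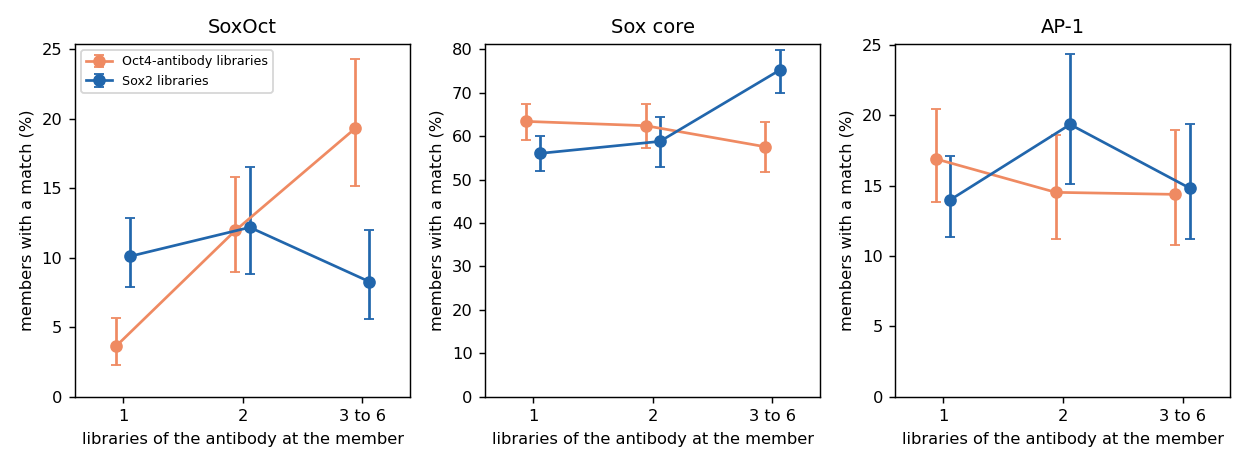
Share of members with SoxOct (left), the Sox core (middle) and AP-1 (right) by the number of Oct4-antibody libraries (orange) or Sox2 libraries (blue) at the member, with Wilson 95% intervals. SoxOct climbs from 3.62% to 19.3% with the Oct4-antibody libraries, and the Sox core from 56.0% to 75.2% with the Sox2 libraries.

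Every member has by the rule at least 1 library of each antibody, so that members without a given library have another one of that antibody, and the differences between members with and without single libraries are tied to each other. The intervals do not allow for this. By single library, SoxOct was most frequent where wild-type Oct4 was found. It was at 16.6% of members with Oct4 at day 1 and 6.67% of those without (difference 9.92 points, 6.01 to 14.2), at 21.4% against 8.56% for day 5 (12.9, 6.59 to 20.5) and at 23 of 73 (31.5%) against 8.68% for day 7 (22.8, 13.1 to 34.3). For Oct4defSox2 the differences were 3.66 at day 1 (−0.913 to 7.15) and −2.55 at day 5 (−7.95 to 10.2, 39 members), within counting error. For Oct4 S151M, members with it held SoxOct in 14.1% and those without in 4.63% (9.50, 6.15 to 12.8). Whether the libraries differ from each other in this was not tested. Read by motif, 69 of the 115 SoxOct members (60.0%) had wild-type Oct4 on some day, against 36.7% of the members without SoxOct.

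The motifs that went with Sox2 are given for each library in turn, and the libraries were not tested against each other. Members with Sox2 in Oct4-SK cells at day 1 held SoxOct in 13.2% and those without in 6.92% (difference 6.26 points, 2.77 to 9.77). Members with Sox2 in Oct4defSox2-SK cells held it less often than those without, at 5.73% against 12.4% for day 1 (−6.69, −9.88 to −3.15) and 5.99% against 12.9% for day 5 (−6.92, −10.2 to −3.45). Their Sox core share was in turn higher, at 67.7% against 58.5% (9.23, 3.28 to 15.0) and 69.8% against 56.2% (13.7, 7.96 to 19.2). In Oct6-SK cells the Sox core share was also higher with Sox2 than without, by 7.79 points at day 1 (1.39 to 13.9) and 9.58 at day 5 (2.76 to 15.9), while SoxOct differed by 3.88 (−0.0966 to 8.51) and −1.54 (−5.23 to 3.07). For Oct4-SK cells at day 5 the differences were 3.26 for SoxOct (−0.919 to 8.33) and 6.62 for the Sox core (−0.276 to 13.1), both within counting error. A SoxOct share below that of the remaining members, past counting error, was thus seen with both Oct4defSox2-SK libraries, and a raised Sox core share with those and both of Oct6-SK cells.

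Other motifs also went with single libraries. AP-1 was at 19.5% of members with Sox2 in Oct4defSox2-SK cells at day 5 and 12.9% of those without (difference 6.61, 2.26 to 11.1), and at 9.76% against 17.1% for Sox2 in Oct6-SK cells at day 5 (−7.38, −11.4 to −2.44). MORE or MORE+1 was at 7 of the 39 members with Oct4defSox2 at day 5 (17.9%), against 1.92% of the rest (16.0, 7.00 to 30.8). It was also more frequent with wild-type Oct4 at day 1 (6.03% against 0.544%), day 5 (10.7% against 1.31%) and day 7 (10.96% against 1.89%) and with Oct4 S151M (3.80% against 0.632%), each past counting error. In all 72 such comparisons, of 6 motif classes in 12 libraries, were made without adjustment.

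The distance limit cut through a continuous range. The members needed a median of 52.0 bp to reach both an Oct4-antibody and a Sox2 summit. The 3 members just inside 100 bp lay near Utrn, Acot10 and Zpld1, in 4, 4 and 3 libraries, each with its nearest Sox2 summit at 100 bp. The 3 summits just outside, at 101 bp, lay near Vmn2r90 and Anxa1, with Oct6 M151S scores of 2.76 and 2.91, and near Gpr158, with 7.18.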

How the data were processed

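The Oct4, Sox2 and Oct6 antibodies were used on 13 ChIP libraries, with no use of the 3 inputs here. Bowtie2 2.2.5, SAMtools, bedtools, FastQC, MACS2 and mm10 are named in the submitters' processing notes. Per the study's methods, paired-end reads were mapped to mm10, reads of low mapping quality and duplicates were removed, and MACS2 called summits in each library at a p-value threshold. The score that the authors deposited for each summit is the −log10 of its MACS2 p-value, unadjusted and not scaled between libraries. Peak tables deposited for the Oct6 M151S and Oct4 S151M libraries add each summit's fold enrichment, a ratio over local background, and its −log10 q-value. These lists hold no read counts and read depth was not used here, so a missing summit can reflect depth or threshold. The lists held 1038 to 101170 summits, 227116 in all. The lowest score was 2.30 in Oct6 M151S and 4.00 or more elsewhere.

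A library was counted at a site when its nearest summit lay within 100 bp. Summits of the Oct4 antibody within 100 bp of each other were merged to define sites with Oct4 and Sox2 but no Oct6. Promoters lay within 1 kb of a start in the GENCODE M21 basic annotation. Motifs were matched as strings on both strands of GRCm38, 100 bp to each side, with windows 2 kb away as background. Shares have Wilson and differences Newcombe 95% intervals, and medians have order-statistic intervals, all for counting error only. An interval that left out 0 marked a difference beyond counting error.

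The members, gene lists and motifs were chosen with earlier results of these data known. Sites named were the 12 members in the most libraries, with ties broken by mean score percentile, the 5 with the highest Oct6 M151S fold, those near listed genes and the 3 on each side of the distance limit. The members within 50 kb of a listed gene, those at promoters and the genes with 4 or more members were named after their values were seen. Alternatives were other distances, scores, q-value limits, libraries left out, 1 summit per peak, promoter definitions, motif windows and a stricter match. Python 3.11.15, numpy 2.4.6, pandas 2.3.3, scipy 1.17.1 and matplotlib 3.10.9 were used, and the procedure was tested on simulated data.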

Additional observations from a re-analysis of the deposited data

How the results depend on the processing

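The promoter difference from the other Oct6 M151S summits, between −10.8 and −6.55 percentage points, the AP-1 difference, between 6.57 and 10.9, and the median of 4 or 5 libraries per member kept their direction under all alternatives run. Leaving out the Oct4defSox2 day 1 library left 794 members, and leaving out any other left 922 to 1133. The member count of 1133 became 541 at 50 bp, 2111 at 250 bp, 687 with Oct4 and Sox2 scores of at least 10, and 569 with Oct6 q-values under 0.05. With a promoter distance of 5 kb, the difference from sites without Oct6 was −2.30 points (−4.47 to 0.0807). The difference in sites without a POU motif, −0.297 points and within counting error as reported, was −3.72 at 50 bp, 4.41 at 250 bp, 2.67 in motif windows of 50 bp and −2.12 with the stricter match, each past counting error and in both directions. The median CpG difference was −0.0240 and became −0.164 in windows of 50 bp and −0.0136 (−0.0282 to 0.00397) at a sharing distance of 50 bp, where its interval took in 0. Because a window without a CpG has a ratio of 0, the sizes in windows of different lengths are not comparable. The Oct6 M151S enrichment ratio of 1.12 was also 1.12 (1.125 before rounding) at 50 bp, 1.08 at 250 bp, 1.05 with q-values under 0.05 and 1.10 with scores of at least 4. The causes were not tested. The score minimum of 4 and the libraries left out other than Oct4 S151M and Sox2 in Oct4defSox2-SK cells at day 5 were chosen after seeing the data. No paired analysis was possible because each group has 1 library, so no replicate could be left out within a group.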
